A study of Mus musculus with 1600 samples.

Results

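The genes described here are 10 genes of the epidermis, the surface epithelium of the skin. They are the basal keratins Krt5, Krt14 and Krt15, the keratin Krt17, the suprabasal genes Krt10, Krtdap and Dmkn, and the simple keratins Krt8, Krt18 and Krt19. They were chosen by name from the 22092 gene symbols of the count table, and all 10 were found. All 10 had a count in at least 10 kept cells, the filter for the stage comparisons. Single cells of mouse limbs were isolated one by one on a microfluidic chip, the Fluidigm C1, and made into Nextera XT sequencing libraries. The embryos were of the C57BL/6 background and all carried the SCX-GFP transgene, a green fluorescent reporter of Scleraxis, a tendon factor. The stage labels were E10.5 (119 kept cells of 3 library pools), E12.5 (158 cells of 4 pools) and E15.5 (200 cells of 5 pools), where a pool is a set of 40 cells sequenced under 1 pool index. The limbs of sibling embryos from one litter went into each stage together, so that a stage is 1 sample and no test between stages could be made.

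Summed counts were 33742559, 46009284 and 46035725 for the labels in order of age, with a median per cell of 272198, 250710 and 192228 counts. The cells labelled E10.5 did not read as hind limb: Tbx5, the forelimb factor, had 67.9 CPM (the gene's counts relative to all counts of the cells, on the usual CPM scale) with a count in 87 of 119 cells, and Pitx1, the hind limb factor, had 0 counts. In the later cells Pitx1 had 169 CPM (E12.5) and 68.7 CPM (E15.5). The limb region and the stage therefore cannot be told apart in any comparison with E10.5. All 12 pools used the same 40 cell barcodes.

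Keratins are filament proteins that assemble as pairs of one type I and one type II chain and give epithelial cells their mechanical strength. Krt5 (type II) and Krt14 (type I) form the pair of the proliferating basal layer, and Krt15 is another type I keratin of that layer. Cells that leave the basal layer switch to Krt1 and Krt10 and secrete Krtdap (keratinocyte differentiation associated protein) and dermokine (Dmkn). Krt8, Krt18 and Krt19 belong to simple epithelia, among them the embryonic surface ectoderm and the periderm, the flat transient sheet over the developing epidermis. Krt17 is known from periderm, hair follicles and wounded skin.

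The suprabasal genes Krtdap and Dmkn lie close together on chromosome 7, and both had 0 counts in all 277 kept cells of the first stages and 17861 and 3541 counts at E15.5. The sequence around their start sites is shown for that reason, with that of Krt10 beside it. Promoter windows of RefSeq on build GRCm38.p6, 250 bases before to 50 after a start site, were found for 7 of the 10 genes. Capitals mark matches to TATAAA (the TATA box) or to TGANTCA (the AP-1 motif), searched on both strands. The windows are chr7:30787655-30787954 on the plus strand for Krtdap, chr7:30763506-30763805 and chr7:30776155-30776454 on the plus strand for an upstream and a downstream start of Dmkn, and chr11:99389315-99389614 on the minus strand for Krt10, each written 5′ to 3′.
Krtdap: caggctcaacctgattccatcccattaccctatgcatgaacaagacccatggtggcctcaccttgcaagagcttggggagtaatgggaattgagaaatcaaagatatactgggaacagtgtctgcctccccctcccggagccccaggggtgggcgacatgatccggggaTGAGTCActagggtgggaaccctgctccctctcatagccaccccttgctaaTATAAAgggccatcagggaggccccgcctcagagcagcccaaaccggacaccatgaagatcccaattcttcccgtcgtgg
Dmkn, upstream start: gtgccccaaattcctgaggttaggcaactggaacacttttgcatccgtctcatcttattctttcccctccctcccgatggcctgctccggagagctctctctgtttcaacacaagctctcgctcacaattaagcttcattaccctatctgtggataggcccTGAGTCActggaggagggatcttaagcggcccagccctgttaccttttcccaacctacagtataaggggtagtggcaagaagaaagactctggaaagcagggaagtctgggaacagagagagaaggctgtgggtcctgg
Dmkn, downstream start: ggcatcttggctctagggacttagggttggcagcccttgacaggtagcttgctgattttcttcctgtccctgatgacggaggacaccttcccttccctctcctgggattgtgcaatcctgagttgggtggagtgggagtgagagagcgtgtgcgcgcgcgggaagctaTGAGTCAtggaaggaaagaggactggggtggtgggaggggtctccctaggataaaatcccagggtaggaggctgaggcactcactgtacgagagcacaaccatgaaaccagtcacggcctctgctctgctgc
Krt10: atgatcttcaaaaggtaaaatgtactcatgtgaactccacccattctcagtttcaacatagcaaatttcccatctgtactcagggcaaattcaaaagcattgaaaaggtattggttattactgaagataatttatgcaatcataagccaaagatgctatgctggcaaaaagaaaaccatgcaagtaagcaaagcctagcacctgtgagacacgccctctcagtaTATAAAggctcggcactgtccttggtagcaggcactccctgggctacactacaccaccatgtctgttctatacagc

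An AP-1 match began at position -81 from the start site of Krtdap, at -89 from the upstream and at -82 from the downstream start of Dmkn. A TATA box match began at -30 in Krtdap and at -26 in Krt10. Of 32851 promoter windows of the same length, 7.81% held TGANTCA and 13.6% held TATAAA. The Krt5 window held no TATA box or AP-1 match, no match to GCCNNNGGC (the AP-2 motif, in 16.6% of windows) and none to AACCNGTT (the Grainyhead motif, in 2.09%). The Krt14 window of the table lies inside the annotated gene and is not described. These matches describe letters and not occupied sites. In the GENCODE annotation of GRCm38, Dmkn (chr7:30763756-30781063) and Krtdap (chr7:30787896-30791097) lie on the plus strand of chromosome 7. Krt14 (chr11:100203162-100207548), Krt15 (chr11:100131758-100135928), Krt17 (chr11:100256217-100261029), Krt19 (chr11:100140810-100148665) and Krt10 (chr11:99385254-99389364) lie on the minus strand of chromosome 11. Krt5 (chr15:101707070-101712898, minus), Krt8 (chr15:101996698-102004482, minus) and Krt18 (chr15:102028180-102032027, plus) lie on chromosome 15. Krt10, Krt5 and Krt8 overlap an antisense RNA, a miRNA gene and a lincRNA on the other strand. The sources used here do not give whether counting used strand, and reads of those overlaps cannot be told apart. Krt14 and Krt17 are close paralogs of Krt16, which was listed at 0 in every cell, and reads shared between such copies make their split uncertain.

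Before levels are compared, the spread of reads within a pool has to be seen, because it decides which cell holds a gene. Krtdap had a count in 137 of the 160 cells of E15.5 pools 8 to 11, and in 0 of the 317 cells of the other 8 pools. In pools 8 to 11, 19 cells held 98.2% of the Krtdap counts, and 118 cells shared 330 counts (1.85%). Low counts thus appeared across a pool that held a few very high cells and in no pool without one. For Krt14 the pattern was alike, with 35 high cells, 149 low cells and 2.03% of the counts in the low cells of the 7 pools that had over 500 counts of the gene. A cell was therefore taken to hold a gene where it had at least 3 counts and more than 0.5% of its pool's counts of that gene, here called above the within-pool spread. Counts were also compared by cell barcode between pools. Each cell of at least 500 Krtdap counts was paired with the cells of other pools that were not themselves high. A count was found in 21.6% of the 74 pairs with the same barcode and in 21.8% of the 2910 other pairs. For Krt14 these shares were 36.8% and 32.7%. Such pairs lie between pools and cannot show where low counts within a pool come from. The source of the low counts was not tested.

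**Figure D1:**
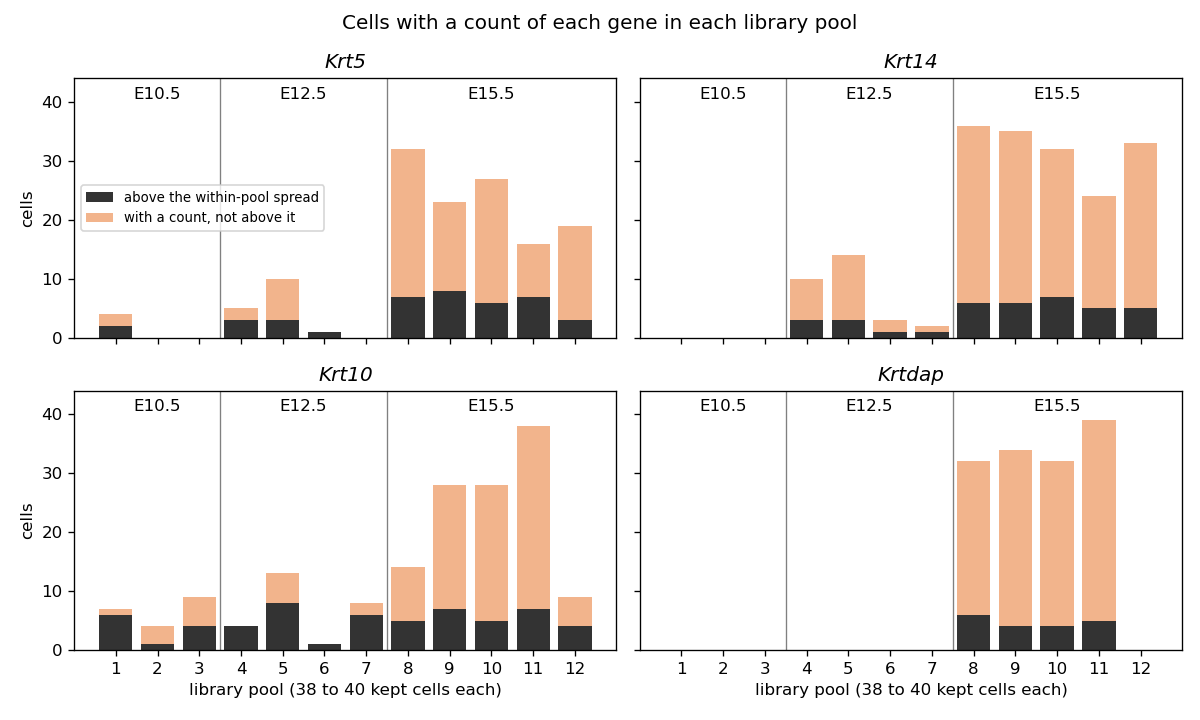
Number of cells (y axis) of each of the 12 library pools (x axis, grouped by stage label) that hold Krt5, Krt14, Krt10 or Krtdap above the within-pool spread (dark bars) or have a lower count (light bars stacked on them). Krtdap has low counts in pools 8 to 11, where 19 cells hold it, and none in pool 12 or in the 7 pools of the earlier labels.

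The basal keratins were near or at 0 under the first label and had their highest levels at E15.5. Krt14, with 0 counts under the first label (a count of 0 allows up to 0.0889 CPM), had 63.7 CPM in E12.5 cells and 388 CPM in E15.5 cells. Its pools lay between 229.9 and 523 CPM at E15.5 and between 12.0 and 138 CPM at E12.5, so the pools of the 3 labels did not overlap. Krt5 had 0.445, 12.4 and 161 CPM in that order (exact Poisson 95% interval at E15.5 from 157 to 165). In pools 8 to 12 of E15.5, Krt5 had 279, 196, 150.3, 81.8 and 79.0 CPM, against 23.7, 26.0, 0.345 and 0 CPM in pools 4 to 7 of E12.5. Krt5 had 0 counts in E12.5 pool 7 and in E10.5 pools 2 and 3, so E12.5 and E10.5 pools overlapped. Krt15 had 1 count under E10.5, 6.78 CPM under E12.5 and 172 CPM under E15.5. In the same pools it had 232, 85.9, 217, 137 and 167 CPM at E15.5, against 0, 25.4, 3.22 and 0 CPM at E12.5. At E12.5, 89.7% of its counts came from cell 175. Krt17 had 0 counts at E10.5 and 1 count at E12.5, against 46.4 CPM at E15.5. Its E15.5 pools fell apart into 138.5 and 66.8 CPM in pools 8 and 10 and 1.36 to 2.17 CPM in the other 3. All intervals here cover counting error only, and in such sums a smaller share of epidermal cells and less RNA per cell cannot be told apart.

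Among the suprabasal genes, Krt10 had counts at every label and Krtdap and Dmkn at the last one. Krt10 had 7.20, 12.2 and 238 CPM in order of age. Cell 428 held 49.7% of the Krt10 counts at E15.5. Its pools 8 to 12 had 101.5, 286, 161, 753 and 29.6 CPM at E15.5, against 12.0, 24.6, 1.84 and 9.14 CPM in pools 4 to 7 at E12.5, so the lowest E15.5 pool lay just above the highest E12.5 pool. Krtdap had 388 CPM (382 to 394) and Dmkn 76.9 CPM (74.4 to 79.5) at E15.5. In pools 8 to 11 Krtdap lay between 387 and 604.96 CPM and Dmkn between 68.5 and 134 CPM, while pool 12 had 0 counts of Krtdap and 13 counts of Dmkn (1.18 CPM).

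The simple keratins were low at every label and rested on few cells. Krt18 had 9.42, 22.9 and 12.7 CPM in order of age, with overlapping pools throughout. Krt8 had 20 counts under E10.5, none under E12.5 and 13.1 CPM under E15.5. Krt19 was at 0 counts under the earlier labels and at 23.7 CPM under E15.5. One cell of pool 10, cell 362, held 75.5% of the Krt8, 59.8% of the Krt18 and 80.4% of the Krt19 counts at E15.5.

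**Figure D2:**
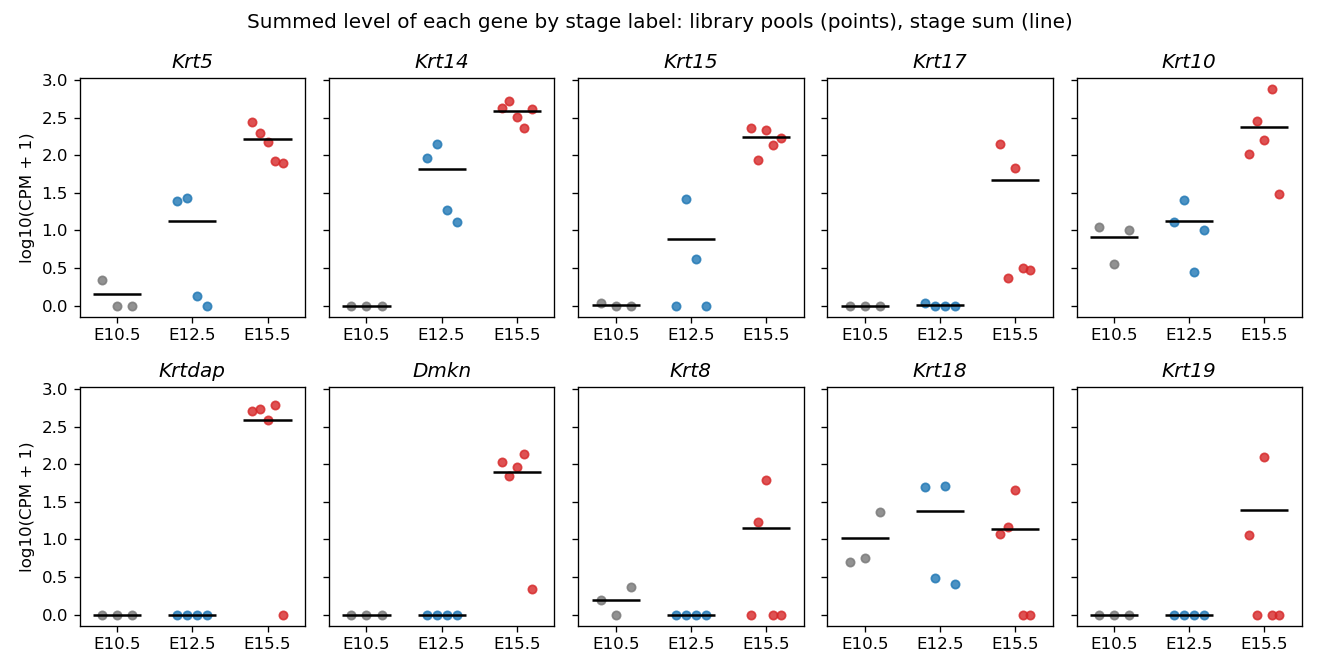
Level of each gene as log10(CPM + 1) (y axis) in each library pool (points) and in the sum over a stage label (black line), with the labels on the x axis. All E15.5 pools of Krt5, Krt14 and Krt15 lie above the E12.5 pools, Krtdap and Dmkn are at 0 before E15.5, and Krt18 overlaps between all 3 labels.

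A gene was called higher or lower where the log2 ratio of CPM + 5 was at least 1 in size and the pools of the compared labels did not overlap. Of the 10 genes, 6 were called higher and 0 lower at E15.5 against E12.5, while 2.99% of 13125 genes were called higher and 1.63% lower. The 6 were Krt5 (log2 ratio 3.26), Krt14 (2.52), Krt15 (3.91), Krt17 (3.35), Krt10 (3.82) and Dmkn (4.03), and the median over all 10 genes was 3.31, against -0.04 over all genes. Krtdap had a log2 ratio of 6.30 and was not called because pool 12 was at 0; without pool 12 it was 6.69 and called. The 3 simple keratins were not called: Krt8 had 1.85, Krt19 had 2.52 and Krt18 had -0.66 (-1.33 without pool 10 and -0.10 without pool 4).

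As plain folds at E15.5 against E12.5, Krt5 was 13.0-fold higher (11.9 to 14.2) and Krt14 6.09-fold higher (5.86 to 6.33). Krtdap was at least 5950-fold higher, set against a floor of 3 counts over the 158 cells of E12.5. For Krt17 the fold rests on 1 count at E12.5 and its counting interval ran from 382 to 84279. Some of these values shifted when a single pool was left out. Without pool 5 the log2 ratio rose from 3.91 to 4.93 for Krt15 and from 2.52 to 3.13 for Krt14. It fell from 3.82 to 2.99 for Krt10 without pool 11, and from 3.35 to 2.10 for Krt17 without pool 8. When every pool lost its highest cell for the gene, Krt10 (2.23) and Krt17 (2.68) were no longer called. Of a list of 12 mesenchyme genes, 9 were also called higher in this comparison.

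Against E10.5 the design also mixes stage and limb region. At E12.5, 1 of the 10 genes was called higher than at E10.5, Krt14 with a log2 ratio of 3.78 (3.17 without pool 5), beside 7.76% of all genes called higher and 2.83% lower. Krt14 was at least 717-fold higher there by its floor. Krt5 had 1.68, Krt15 1.23 (0.21 without pool 5) and Krt18 0.95 (0.39 without pool 4 and 1.58 without pool 3), none called. At E15.5 against E10.5, 6 of 10 were called higher, again Krt5, Krt14, Krt15, Krt17, Krt10 and Dmkn, beside 11.2% of all genes called higher and 5.01% lower. Krt17 had a log2 ratio of 3.36 there (2.10 without pool 8) and Krt10 4.31 (3.49 without pool 11). Of all called genes, 73.3% were higher at E12.5 against E10.5 (63.0% with TMM factors), and 64.7% at E15.5 against E12.5 (75.1% with DESeq2 size factors).

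To find which cells held the genes, a cell was called epithelial-reading where at least 4 genes of a list of 16 epithelial identity genes, none of them among the 10, stood above the within-pool spread. Under the E10.5 label 3 of 119 cells were such cells (1 without pool 1), under E12.5 7 of 158 (4.43%, exact binomial 95% interval 1.80 to 8.92) and under E15.5 25 of 200 (interval 8.26 to 17.9%). With cells thinned to 50000 counts, 24 of 185 E15.5 cells and 6 of 149 E12.5 cells met the rule. The 25 cells came from all 5 E15.5 pools. All 25 held at least 2 of the 10 genes and a median of 5, while 8 of the 175 other E15.5 cells held at least 2. The 10 genes took a median of 0.705% and at most 5.12% of the counts of an epithelial-reading E15.5 cell.

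These cells held nearly all basal keratin counts. At E15.5 the 25 cells had 95.0% of the Krt5, 94.2% of the Krt14 and 93.1% of the Krt15 counts. Krt5 stood above the spread in 25 of 25 cells, with a lowest level of 61.8 CPM, a median of 630.04 CPM and a highest of 5656 CPM. Among the 175 other cells Krt5 was above the spread in 6, and the median level was 2.33 CPM. Krt14 was held by 20 of the 25 cells, with levels from 6.15 CPM over a median of 2029 CPM to 6439 CPM. Krt15 was held by 20 of 25, from 0 over 578.7 to 11999 CPM.

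The E12.5 epithelial-reading cells held Krt5 and Krt14 in 7 of 7, at lower levels than at E15.5 in the sums over such cells. Of these 7 cells, 5 held at least 4 of the 12 mesenchyme genes. Their median depth was 574172 counts, against 240151 in the other E12.5 cells. At E15.5 the same medians were 274067 and 178642 counts. Whether such libraries hold more than 1 cell was not tested. Krt14 had 2252 CPM (2218 to 2287) in the E15.5 cells and 783 CPM (754 to 813) in the E12.5 cells. Its single cells overlapped, from 6.15 to 6439 CPM at E15.5 and from 219 to 1758 CPM at E12.5. Krt5 had 943 CPM in the E15.5 cells and 160 CPM in the E12.5 cells, and the single cells overlapped, from 61.8 to 5656 CPM at E15.5 and from 11.7 to 380.4 CPM at E12.5. Krt15 was held by 2 of the 7 E12.5 cells, cell 175 with 280 counts and cell 204 with 28 counts. A further E12.5 cell, cell 278, held Krt14 with 173 counts (1949.7 CPM) without reaching 4 epithelial genes; it held 0 of the 12 mesenchyme and at least 3 of the 7 cartilage genes. At E10.5, Krt5 was above the spread in cells 3 and 13 with 6 and 5 counts, and Krt14 had no count in any cell.

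Krt17 was held by 11 of the 25 epithelial-reading E15.5 cells, from 21.2 over a median of 815 to 3974 CPM in the cells that held it. Of its E15.5 counts, 97.2% lay in the 25 cells. It went with Krt14 in 9 cells and with Krtdap in 7, and was held by 8 cells with a suprabasal gene and 3 without. Another keratin known from periderm and wounded skin, Krt6a, was held by 3 of the 25.

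**Figure D3:**
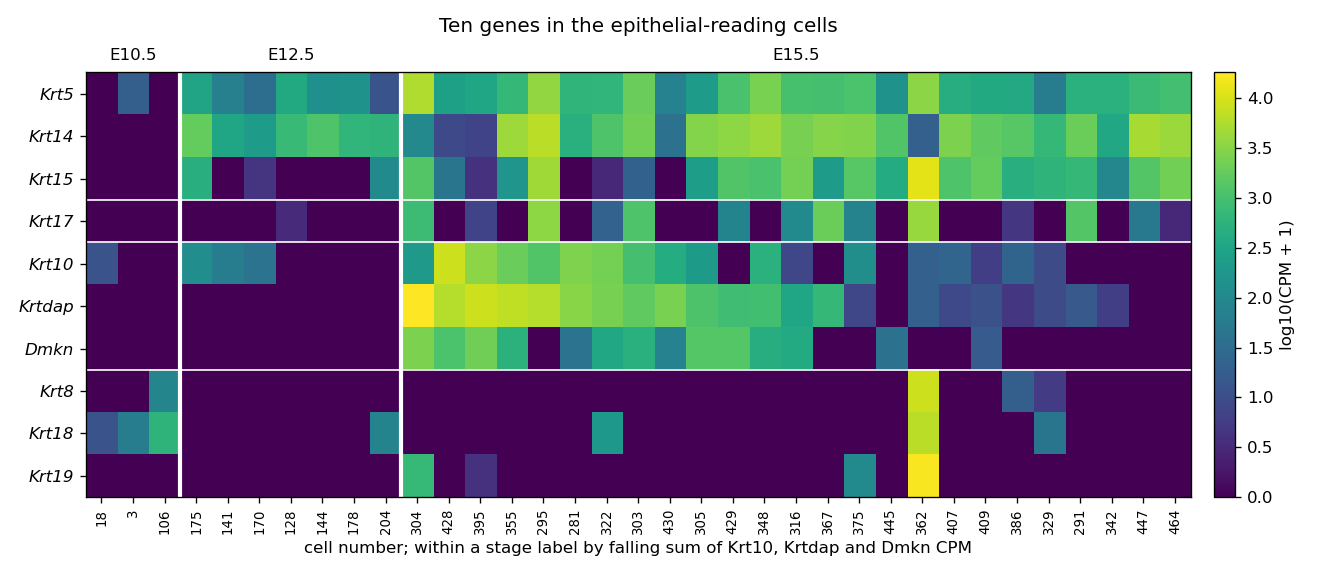
Level of the 10 genes (rows) as log10(CPM + 1) (colour) in the 35 epithelial-reading cells (columns, cell numbers below), grouped by stage label and within a label ordered by falling summed CPM of Krt10, Krtdap and Dmkn. Krt5 is present in all 25 cells at E15.5, the suprabasal genes fill the left of that block, and cell 362 carries Krt8, Krt18 and Krt19.

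Of the 25 epithelial-reading E15.5 cells, 12 held Krt10, 14 Krtdap and 13 Dmkn, and 16 held at least one of them. Krt10 and Krtdap were held together in 11 cells, Krtdap and Dmkn in 12, and Krt10 and Dmkn in 10. Krt14 was held by 12 of the 16. Outside the epithelial-reading cells, E15.5 cell 405 held Krt10 (67 counts), Krtdap (237) and Dmkn (13) with 0 counts of Krt5, Krt14 and Krt15; it held 3 of the 16 epithelial and 6 of the 12 mesenchyme genes. Krtdap reached 18084 CPM in cell 304, Krt10 8446 CPM in cell 428 and Dmkn 2604 CPM in cell 304. The 3 epithelial-reading cells of pool 12 (cells 445, 447 and 464) had 0 counts of Krt10 and of Krtdap, and cell 445 had 12 counts of Dmkn.

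In the cells with the highest suprabasal levels, Krt5 was present with little Krt14. Krt14 made up 1.70% of the summed Krt5 and Krt14 counts in cell 304 (16 counts against 923 of Krt5), 2.91% in cell 428 (5 against 167) and 1.90% in cell 395 (2 against 103). In cells 304, 428 and 395 Krt14 was not above the within-pool spread. Over the other 22 cells this share ranged from 0.585 to 92.9% with a median of 75.6%. Without cell 362 its lowest value was 33.3%, in cell 430. That value rests on 3 Krt14 and 6 Krt5 counts, and Krt14 was not above the spread there. The cell next in suprabasal level, cell 355, had a share of 86.2%. Across the 25 cells the share and the summed suprabasal CPM had Pearson's r of -0.65 and Spearman's rho of -0.49, given as a description, since both are read from the same libraries. These are shares of counts and not of molecules. Cell 304 held 0 of the 12 mesenchyme genes. Cell 428 held 10 of the 12, and cell 395 held all 7 cartilage genes, Col2a1 with 3047 counts among them; whether such libraries hold more than one cell was not tested.

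**Figure D4:**
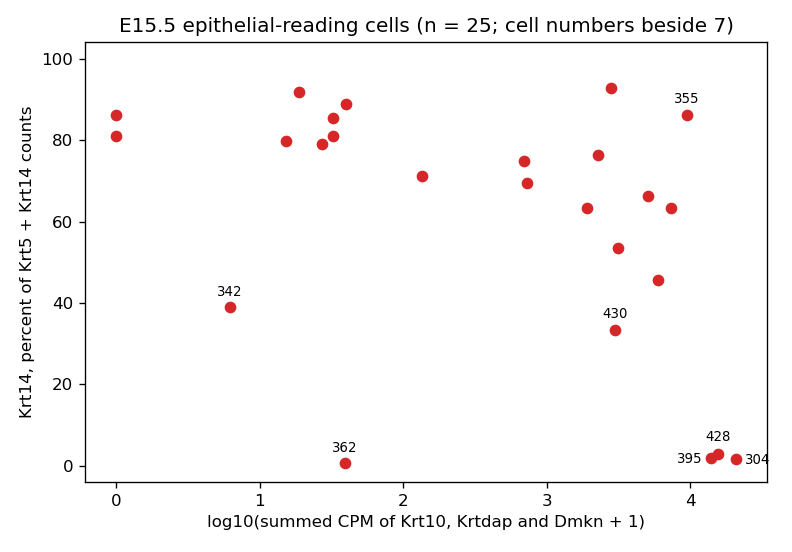
Krt14 as a percent of the summed Krt5 and Krt14 counts (y axis) against log10 of the summed CPM of Krt10, Krtdap and Dmkn plus 1 (x axis) in the 25 epithelial-reading E15.5 cells, 1 point per cell. Cells 304, 428 and 395 lie at the lower right with 1.70, 2.91 and 1.90%, and cell 362 lies at 0.585% with few suprabasal counts.

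Between the 16 epithelial-reading E15.5 cells with a suprabasal gene and the 9 without, the lists were tallied by which cells held a gene in the larger share. Of 22 cornified envelope and late differentiation genes, 14 were held in a larger share of the 16, 1 in a larger share of the 9 and 7 in none of the 25. Of 21 keratinocyte regulators the tally was 14 against 5, of 19 desmosome and junction genes 10 against 8, and of 10 basal adhesion and basement membrane genes 3 against 7. All 7 cartilage genes were also held in a larger share of the 16, and of 12 mesenchyme genes 4 against 8. Their part was not tested. Of 8 red cell genes the tally was 5 against 0, and of 11 immune genes 0 against 2. With 16 cells against 9, a gene held by few cells falls to the 16 more often by group size alone. Ppl (periplakin, a desmosomal linker) was held by 10 of the 16 cells and 0 of the 9, Ly6d by 9 and 0, Jag1 (a Notch ligand) by 9 and 0, Krt1 (the partner of Krt10) by 8 and 0, and Notch3 by 7 and 0. Trp63, the master regulator of stratified epithelium, was held by 13 of the 16 and 8 of the 9. Col17a1, a collagen of the hemidesmosome, was held by 4 of the 16 and 7 of the 9, while Cd9 of the same list was held by 15 and 1. The 16 cells were chosen by their own keratin values and spread over all 5 pools, so these counts are given without a test. Of the 22 cornified envelope and late differentiation genes, 12 were held by 3 or more of the 25 cells, from Sfn in 24 and Lgals7 in 12 to Lor (loricrin) in 4 and Casp14 in 3, and Ivl (involucrin) was listed at 0 in every cell. Lor had 9.39, 2.00 and 5.47 CPM in order of age and was not called in any comparison.

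Most simple keratin counts of the epithelial-reading cells lay in cell 362. This cell had 52587 counts, of which 454 were Krt8, 350 Krt18, 877 Krt19, 209 Krt17, 170 Krt5 and 1 Krt14, and its Krt15 level of 11999 CPM was the highest of the 25. It also held Krt4 (160 counts), Krt6a (14) and Krt7 (307), 9 of the 13 genes of the periderm list (4 of them among the 10 genes described here) and 0 of the 12 mesenchyme genes. Among the other 24 cells, Krt19 was held by cell 304 (117 counts) and cell 375 (59 counts), Krt18 by cell 322 (95 counts) and cell 329 (10 counts), and Krt8 by cell 386 (5 counts). Of the 3 epithelial-reading cells labelled E10.5, all held Krt18 (82, 19 and 3 counts) and cell 106 held Krt8 with 12 counts.

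Combining the sets per cell, where a set counts as held with any of its 3 genes above the spread, left 133 of the 200 E15.5 cells without a set. At E10.5, 10 cells held the suprabasal set alone, 5 the simple set alone, 2 basal and simple sets and 1 suprabasal and simple sets. Basal and suprabasal sets together were found in 0 of those 119 cells, a count that leaves room for up to 2.52% by a floor of 3 cells and up to 3.05% by the exact interval. At E12.5, 3 cells held basal and suprabasal sets, 4 the basal set alone, 1 basal and simple sets, 16 the suprabasal set alone and 9 the simple set alone. The 3 cells (141, 170 and 175) held the suprabasal set through Krt10 alone, at 60.5, 40.1 and 123 CPM. The 16 non-epithelial-reading E12.5 cells with Krt10 had 5.86 to 219 CPM. Cells 141, 170 and 175 held 11, 4 and 2 of the 12 mesenchyme genes. At E15.5, 18 cells (9.00%, 5.42 to 13.9) held basal and suprabasal sets, 21 the basal set alone, 16 (8.00%) the suprabasal set alone, 6 the simple set alone, 3 basal and simple sets and 3 all sets. Of the 21 E15.5 cells with both basal and suprabasal sets, with or without the simple set, 16 were epithelial-reading. Of the 21 with the basal set alone, 6 were epithelial-reading. None of the 16 with the suprabasal set alone or of the 6 with the simple set alone was. The median number of mesenchyme genes in E15.5 cells with the basal, suprabasal or simple set alone was 7, 9 and 8.5.

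**Figure D5:**
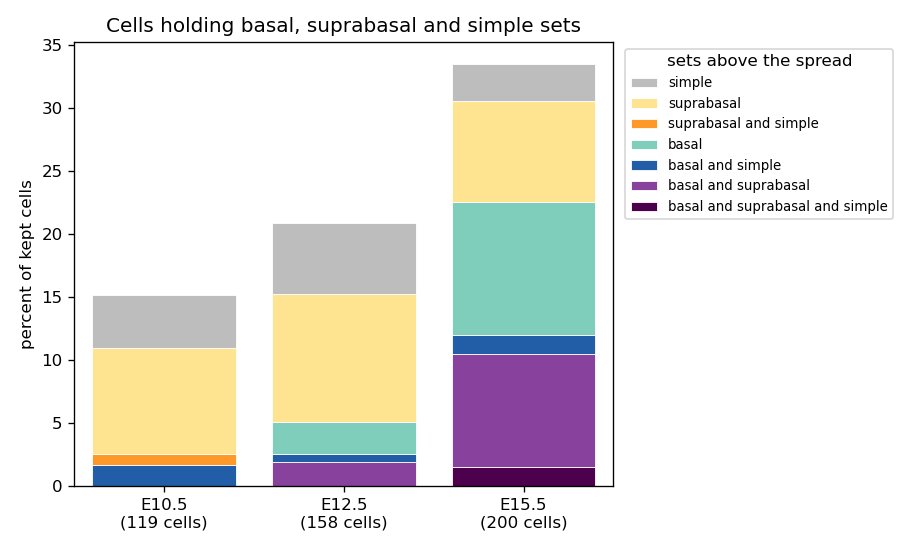
Percent of kept cells of each stage label (y axis) that hold each combination of the basal, suprabasal and simple sets above the within-pool spread (colours, stacked); cells with no set are not drawn. Cells with basal and suprabasal sets but not the simple set make up 9.00% at E15.5 and 1.90% at E12.5, where the suprabasal set was held through Krt10 alone. The suprabasal set alone is at 8.00 to 10.1% under every label, by a cutoff that rises with a gene's counts in the pool.

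Under the earlier labels, the cells with the suprabasal set alone held it through Krt10. All 16 at E12.5 and all 10 at E10.5 held Krt10 and neither Krtdap nor Dmkn, and none was epithelial-reading. Krt10 counts in the non-epithelial-reading cells that held it ran from 4 over a median of 17 to 62 under E10.5, from 3 over 25 to 80 under E12.5 and from 18 over 41 to 135 under E15.5. The cutoff rises with the pool's Krt10 counts, so these ranges do not compare levels between labels. In E15.5 pool 11 (5903 Krt10 counts), cells with up to 14 counts were not taken to hold it. In E12.5 pool 5 (275 counts), this applied to cells with up to 2 counts. The non-epithelial-reading cells that held Krt10 had a median of 4.5, 6.5 and 8.5 mesenchyme genes, beside 4, 6 and 8 in the other non-epithelial-reading cells of the same label. The non-epithelial-reading cells held 9.92% of the Krt10 counts at E15.5 and 76.6% at E12.5. Krt18 without Krt8 gave a like pattern at E12.5, where 9 non-epithelial-reading cells held it with 5 to 320 counts, and 98.1% of the Krt18 counts lay outside the epithelial-reading cells.

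Mesenchyme genes were also present in epithelial-reading cells. At E15.5 these cells held a median of 4 of the 12 mesenchyme genes (range 0 to 10) with a summed median level of 1840 CPM, against 8 (0 to 12) and 13446 CPM in the other cells. At least 4 mesenchyme genes were held by 13 of the 25 epithelial-reading cells at E15.5 and by 5 of the 7 at E12.5. Without cells holding at least 4 mesenchyme genes, 15 E15.5 cells held the basal set against 45 with them, and 8 held basal and suprabasal sets against 21. At E12.5 the basal set was held by 3 cells without them, against 8 with them. Genes above the spread in 3 or more of the 25 cells numbered 12 of 12 in the mesenchyme list, 4 of 7 in cartilage, 2 of 6 in tendon, 2 of 9 in the Schwann and melanocyte list, 1 of 9 in muscle and 0 in the endothelial (9 genes), red cell (8) and immune (11) lists. The part of these genes in the combinations was not tested.

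Genes whose levels were most like the sets over the 200 E15.5 cells were ranked by Pearson's r of log2(CPM + 10) among 11118 genes (11119 for the simple set). For the basal set they were Perp (0.75), Trp63 (0.75), Sfn (0.73), Fgfbp1 (0.70), Trim29 (0.66) and Dsp (0.64). For the suprabasal set they were Perp (0.71), Ly6d (0.70), Krt1 (0.68), BC100530 (0.68), Dsg1a (0.67) and Hspb1 (0.66). Perp, a desmosome protein, was held by 29 E15.5 cells, of which 25 held the basal and 19 the suprabasal set. For the simple set they were Optn (0.59), Krt7 (0.58), Acot10 (0.56), Cds1 (0.47), Bpgm (0.47) and Fam25c (0.45), and cell 362 held 62.5% of the Krt7 and 56.9% of the Optn counts. These correlations share the cells, their depth and the within-pool spread.

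In most lists of related genes at E15.5 against E12.5, the shares called stood above the 2.99% of all genes called higher, in small numbers. Of 4 Merkel cell genes that could be compared, 0 were called higher. Of 11 apical ectodermal ridge and limb ectoderm genes, 1 was called higher and 1 lower. The lists are not separate, and Sfn is in the epithelial identity, periderm and cornified envelope lists. Of 16 epithelial identity genes, 3 were called higher, Cdh1 and Sfn among them, and 0 lower, with a median log2 ratio of 1.14. Of 10 periderm genes that could be compared, 4 were called higher, Krt17 and Sfn among them. Krt8, Krt17, Krt18 and Krt19 are themselves in that list. Of 17 desmosome and junction genes that could be compared, 2 were called higher (Pkp1 and Dsg3) and 0 lower, with a median log2 ratio of 1.09. Perp had 296 CPM at E15.5 and 32.6 CPM at E12.5, and was not called. Dsp (desmoplakin) had 127 CPM at E15.5 and 21.0 CPM at E12.5, and was not called. Of 10 basal adhesion and basement membrane genes, 2 were called higher, Cd9 among them, with a median of 1.05. Of 19 keratinocyte regulators 4 were called higher, Klf4, Jag1 and Gata3 among them, with a median of 0.67. Klf4 had 88.5 CPM in the epithelial-reading E15.5 cells and 360.2 CPM in the other cells. Of 8 cornified envelope and late differentiation genes that could be compared, 2 were called higher (Sfn and Krt1), with a median of 1.98, and Ly6d had 53.2 CPM at E15.5 and 0 counts at E12.5 without a call. Of 22 other keratins, 3 had enough cells to compare and Krt1 was called higher. Beside them, the mesenchyme list had a median of 1.56 and the median over all genes was -0.04.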

How the data were processed

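The deposited table held whole-number counts per gene and cell, with no normalization shown by the values, and the submitters' processing notes name mm10, Bowtie2 and featureCounts. Not given in the sources used here are their versions, the annotation, the strand setting and whether molecular identifiers were used; a count was taken as a read. Of 480 cells, 3 had fewer than 1000 genes detected and were dropped; 1120 further samples were not analysed here. Repeated symbols (298) had identical entries dropped and the rest summed. Stage came from each label, and the pool from its index.

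The 10 genes and the 21 lists (230 entries, 206 symbols, 3 not found) were chosen with earlier results of these data known. Counts were summed per stage and pool and divided by total counts to give CPM; each stage is 1 sample, so there are calls and no tests. Intervals are exact Poisson or Clopper-Pearson at 95%. Genes with a count in at least 10 cells were compared. Calls and the spread rule were run on simulated data. The simulated cells that held a gene had far more counts than the minimum of 3, so errors near that minimum were not measured. Doublets were not called or removed. Alternatives were an addition of 1 or 20 to the CPM, the mean over cells of CPM, TMM factors (edgeR 4.0.16) and size factors (DESeq2 1.42.0) over pool sums, all cells, no filter, other spread rules, cells with 2000 genes, thinning to 50000 counts, 2 of 3 set genes, without cells with 4 mesenchyme genes, without the highest cell, and each pool left out. Python 3.11.15 with pandas 2.3.3 and scipy 1.17.1, and R 4.3.3, were used.

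Genes named are the 10, the 6 most alike to each set, up to 4 of each list with at least 20 CPM by level at E15.5, and list members completing a count of 5 or fewer. Tbx5, Pitx1, Klf4 in cells, and the genes compared between cells with and without a suprabasal gene or listed for cells 304, 395, 428 and 362 were named after their values were seen. Some list genes are not reported here.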

Additional observations from a re-analysis of the deposited data

Results flagged for a closer look

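Of 16 sets of 4 or 5 pools examined, 4 had a pool far from the others. The rule's chance rate of about 1 in 20 is for normally distributed values. It does not apply here, where many pools were at 0 or set by 1 cell. A gene with counts in 1 pool alone is always flagged. Krt15 had 25.4 CPM in E12.5 pool 5, where cell 175 held 280 of 284 counts, and the next pool had 3.22 CPM. Krt17 had 0.0854 CPM in E12.5 pool 4, which is 1 count, and 0 in the other pools. Krt8 had 60.2 CPM in E15.5 pool 10 and 16.1 CPM in the next pool, and Krt19 had 124 CPM in pool 10 and 10.4 CPM in the next. Cell 362 held 96.4% of the Krt8 and 90.0% of the Krt19 counts of pool 10.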

How the results depend on the processing

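No paired analysis was possible because no result comes from a test and each stage is 1 sample. Of 198 alternative values of the counts of genes and cells, 174 stayed within 1.5 times, with 0 against 0 included. Many of the 198 could hardly move, such as 0 genes called lower or a count without a single pool. The share is therefore no measure of how firm the results are. Genes called higher numbered 6 to 7 without a pool at E15.5 against E12.5 and against E10.5 (4 and 5 without the highest cell of the gene in every pool) and 1 at E12.5 against E10.5; 0 were called lower under every alternative run. With any count in place of the spread rule, E15.5 had 48 epithelial-reading cells, 181 with the basal set, 161 with the suprabasal set, 35 with the simple set, 145 with basal and suprabasal sets and 45 epithelial-reading cells with the suprabasal set, and E12.5 had 36 cells with the basal set. With 2 epithelial genes required, 40 E15.5 cells were epithelial-reading. With cells thinned to 50000 counts, 45 E15.5 cells held the suprabasal set, against 37 without thinning. With 2 of 3 set genes required, the basal set was held by 27 E15.5 cells, the suprabasal by 16, the simple by 1 and basal with suprabasal by 13. Without cells with 4 mesenchyme genes the counts were 15 basal, 8 suprabasal, 4 simple, 8 basal with suprabasal, and 8 epithelial-reading with suprabasal at E15.5, and 3 basal at E12.5. Leaving out each pool in turn gave 4 to 7 epithelial-reading cells and 5 to 7 with the basal set at E12.5 (lowest without pool 4 or 5), and at E15.5 18 to 22 epithelial-reading, 32 to 39 basal, 27 to 32 suprabasal, 7 to 12 simple (lowest without pool 10), 15 to 20 basal with suprabasal and 10 to 15 epithelial-reading with suprabasal (lowest without pool 8). At E10.5, without pool 1, suprabasal cells numbered 5 against 11 and simple cells 4 against 8, and no cell held the basal set against 2; at E12.5, without pool 5, suprabasal cells numbered 11 against 19 and basal with suprabasal 1 against 3, and without pool 6 simple cells numbered 6 against 10. No setting reversed a called gene. Sparse reads limit the low genes: a count of 0 at E12.5 allows up to 0.0652 CPM.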
